A study of Mus musculus with 4 samples.

Results

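The genes described here are 9 liver genes known for their response to fasting and to the nuclear receptor PPAR alpha. They were chosen by name, with earlier results of these data known. They are Pdk4, Pdk2, Cpt1a, Bdh1, Cyp4a10, Cyp4a14, Acot1, Vnn1 and Angptl4. Each matched 1 row among the 35275 rows of the deposited read count table. All 9 passed the filter of at least 1 CPM (reads per 1e+06 reads) in at least 1 library, as did 12180 genes in all.

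RNA-seq was performed on livers of female mice that carry the amyloidogenic Apoa2c allele, in 4 groups. VS mice received vehicle and stayed sedentary, VI mice received vehicle and ran high-intensity interval training (IT) on a treadmill, FS mice received AApoAII amyloid fibrils intravenously and stayed sedentary, and FI mice received fibrils and IT. Training lasted 16 weeks and the mice were 26 weeks old at its end. Liver tissue of 4 mice was pooled into a single library per group, so no spread between mice could be measured in any group. Every group shared the Apoa2c congenic genotype, the diet and the age, and the strain is AKR/J in the sample labels but R1.P1-Apoa2c, on a SAMR1 background, in the study's methods. Diet was freely available. The study collected organs within a day of the end of training. A part of the last run and a part of the 16 weeks of training cannot be told apart in these libraries. The hour of liver collection and the feeding state at that hour were not given in the sources used here.

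PPAR alpha is the main fatty acid sensor of hepatocytes. It pairs with the retinoid X receptor and, when fatty acids reach the liver during fasting, drives genes for fatty acid oxidation, ketone body production and omega hydroxylation. Pyruvate dehydrogenase kinases such as PDK4 and PDK2 phosphorylate and switch off the pyruvate dehydrogenase complex, which spares glucose while fat is burned.

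The libraries held 23442935 (VS), 24524287 (VI), 28814802 (FS) and 24801185 (FI) counted reads. The levels below are CPM scaled by the trimmed mean of M values (TMM). A log2 ratio compares 1 library with another and is written with a slash, so that FI/FS is FI over FS. Its brackets hold the 95% interval from read counting alone, and a ratio past 2-fold (log2 above 1 or below -1) was counted as large. In bulk liver, fewer cells of a type and less RNA per cell cannot be told apart. All 6 hepatocyte markers were present in every library, led by Alb at 119865 to 135778 CPM. The 13 skeletal muscle markers summed to 78.5 (VS), 10.2 (VI), 1.12 (FS) and 1.07 CPM (FI), led in VS by Acta1 at 19.3 CPM, and their part in ratios that use VS was not tested. The 5 Kupffer cell and macrophage markers found summed to 177 (VS), 221 (VI), 271 (FS) and 257 CPM (FI). The 5 erythroid markers summed to between 252 and 359 CPM. The 8 adipose markers summed to 403 to 1384 CPM, nearly all of it Car3, while Adipoq, Lep and Plin1 had at most 1 count in any library. The 6 pancreas markers summed to 12.8 to 23.2 CPM, most of it Cela1.

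The Pdk4 gene (ENSMUSG00000019577, chr6:5483351-5496309, minus strand, mm10) stood at 26.0 (VS), 51.0 (VI), 5.79 (FS) and 44.5 CPM (FI), from 613, 1242, 171 and 1077 reads. FS stood far below the other libraries, and both trained libraries stood above both sedentary ones. The promoter of Pdk4 is shown with those of Acot1, the other gene with a very low FS level, and Cpt1a, whose level hardly moved. The sequences are upstream of the RefSeq starts on GRCm38.p6, at chr6:5496310-5496528 (minus strand), chr12:84009252-84009489 (plus) and chr19:3323051-3323284 (plus), and they stop where a GENCODE exon of the gene begins. Capitals mark CCAAT, or its reverse complement, and the nuclear receptor half-site AGGTCA, or its reverse complement.
Pdk4: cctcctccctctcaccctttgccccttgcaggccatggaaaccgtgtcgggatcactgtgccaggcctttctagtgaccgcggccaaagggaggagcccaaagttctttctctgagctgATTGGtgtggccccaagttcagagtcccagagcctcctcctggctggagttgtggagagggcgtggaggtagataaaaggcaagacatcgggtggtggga
Acot1: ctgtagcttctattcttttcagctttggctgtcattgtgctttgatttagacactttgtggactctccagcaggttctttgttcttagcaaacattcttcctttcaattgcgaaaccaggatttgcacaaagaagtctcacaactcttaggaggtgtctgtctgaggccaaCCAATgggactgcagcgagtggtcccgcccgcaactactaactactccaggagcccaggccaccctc
Cpt1a: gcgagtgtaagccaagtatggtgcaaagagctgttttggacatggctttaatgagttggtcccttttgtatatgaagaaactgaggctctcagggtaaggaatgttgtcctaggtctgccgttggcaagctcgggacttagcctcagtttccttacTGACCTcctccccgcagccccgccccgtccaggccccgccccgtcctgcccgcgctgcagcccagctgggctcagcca

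RefSeq promoters were matched for 5 of the 9 genes (Pdk4, Pdk2, Cpt1a, Bdh1 and Acot1), which have 7 start sites. In the 250 bases before the start, on both strands, AGGTCA was found once, before Cpt1a, against 14.02% of 32851 promoters that hold it. The direct repeat of that half-site with a 1-base spacer, on which PPAR alpha and its partner bind as a pair, had no match with 2 or fewer mismatches in the 7 windows, against 3.24% of all promoters. The FOXO core GTAAACA had none either, against 3.17%. CCAAT, searched after the sequences had been read, lay before Pdk4, Acot1, Cpt1a and the upstream start of Pdk2, against 33.85% of all promoters. The CCAAT of Cpt1a falls past the printed stretch. These are matches of letters in short windows and say nothing of more distant elements.

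In the comparison of trained with sedentary livers after fibril injection (FI/FS), Pdk4 was 7.67-fold higher in FI, or 2.94 on the log2 scale (2.71 to 3.18). That placed it at rank 7 from the top of 12180 genes. Without fibrils (VI/VS) it was 1.96-fold higher in VI, or 0.97 on the log2 scale (0.83 to 1.12). The difference of the 2 log2 ratios was 1.97 (1.69 to 2.24), rank 50 from the top. Between the sedentary libraries (FS/VS) its log2 ratio was -2.16 (-2.42 to -1.92), 4.47-fold lower with fibrils and rank 43 from the bottom. Between the trained libraries (FI/VI) it was -0.20 (-0.31 to -0.08). FS is shared by the FI/FS and FS/VS comparisons, so its single low value enters both, and VS is shared in the same way by FS/VS and VI/VS.

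Pdk2 (ENSMUSG00000038967, chr11:95026258-95041354), a kinase of the same family found in most tissues, stood at 122 (VS), 106 (VI), 89.6 (FS) and 119 CPM (FI). FS was again lowest, but the whole span was 0.44 on the log2 scale, against 3.13 for Pdk4. Its log2 ratio was -0.20 (-0.28 to -0.12) in VI/VS and 0.42 (0.34 to 0.49) in FI/FS. A second gene, Gm11513, overlaps Pdk2 on the opposite strand, and the sources used here do not state whether reads were counted by strand. Per length of transcript, in FPKM, Pdk2 exceeded Pdk4 in each library: 54.5 against 7.51 (VS), 46.8 against 14.5 (VI), 40.9 against 1.70 (FS) and 51.9 against 12.5 (FI).

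**Figure D1:**
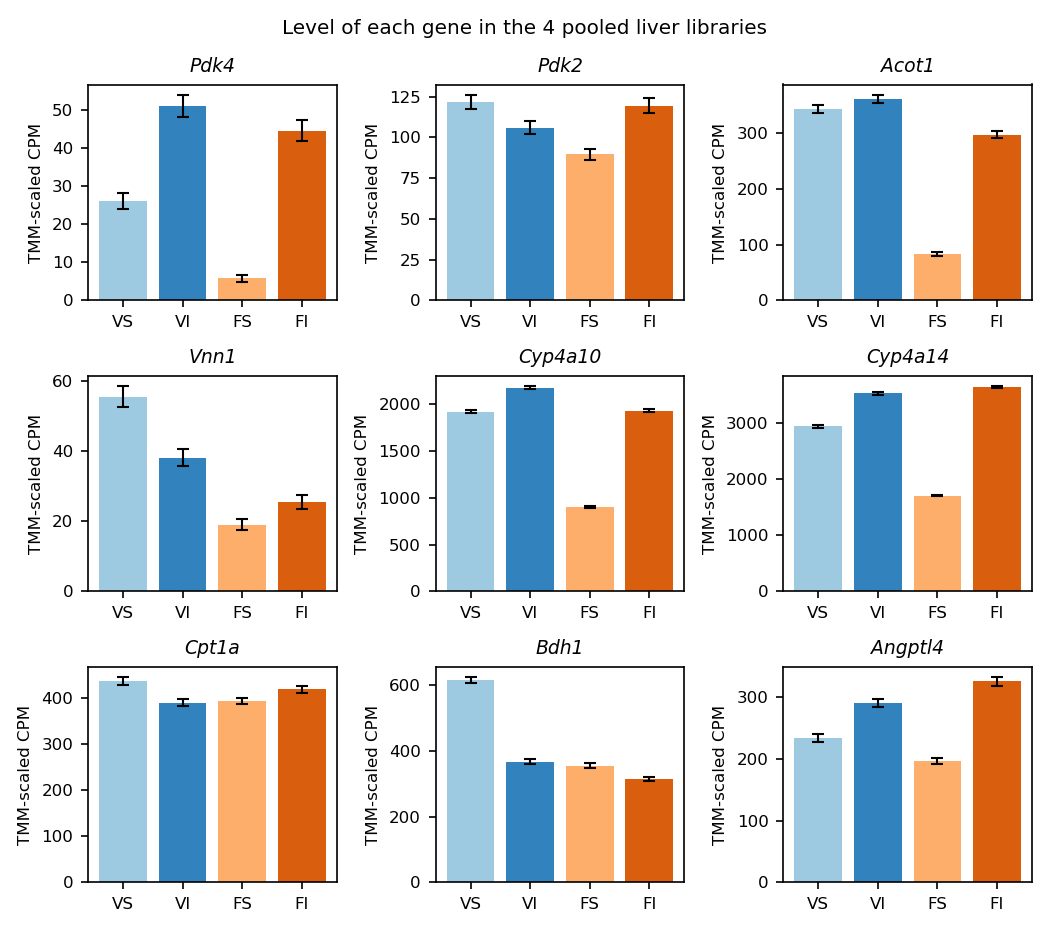
TMM-scaled CPM (y axis, from 0) of each of the 9 genes in the libraries VS, VI, FS and FI (x axis), 1 pooled library per bar, with 95% intervals from read counting only. FS is the lowest bar for 7 genes, the exceptions being Cpt1a and Bdh1, and Bdh1 is highest in VS at 614 CPM.

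Acot1 (ENSMUSG00000072949, chr12:84009502-84017670, plus strand), which splits long-chain acyl-CoA into free fatty acid and CoA in the cytosol, followed Pdk4 most closely among the 9 genes. Its level was 342 (VS), 361 (VI), 83.1 (FS) and 297 CPM (FI). Only FS stood apart, and the other libraries lay within 0.28 of each other on the log2 scale. The log2 ratio was 1.84 (1.77 to 1.91) in FI/FS, rank 30 from the top, and -2.04 (-2.11 to -1.98) in FS/VS, rank 52 from the bottom. In VI/VS it was 0.08 (0.03 to 0.12), and the difference between both training ratios was 1.76 (1.68 to 1.84). The neighbouring genes are close copies: 19.2% of the 50-base words of the Acot1 transcripts occur in transcripts of other genes, 13.6% in Acot2, so some reads could have been split between them.

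The omega hydroxylases Cyp4a10 (ENSMUSG00000066072, chr4:115518264-115533649) and Cyp4a14 (ENSMUSG00000028715, chr4:115486200-115496142), microsomal enzymes that oxidise the far end of fatty acids, had the highest levels. Cyp4a14 stood at 2938 (VS), 3528 (VI), 1706 (FS) and 3638 CPM (FI). Cyp4a10 stood at 1916 (VS), 2173 (VI), 904 (FS) and 1926 CPM (FI). Both were lowest in FS, and their FI levels stood close to those of the vehicle libraries. In FI/FS the log2 ratios were 1.09 (1.07 to 1.11) for Cyp4a10 and 1.09 (1.08 to 1.11) for Cyp4a14, where those in VI/VS were 0.18 and 0.26. In FS/VS they were -1.08 (-1.11 to -1.06) for Cyp4a10 and -0.78 (-0.80 to -0.77) for Cyp4a14. Of the 50-base words of Cyp4a10, 29.8% occur in other genes, and words shared with Cyp4a32 make up 24.5% of all Cyp4a10 words, whereas for Cyp4a14 the share in other genes was 0.235%. Cyp4a32 had 46.8, 66.5, 35.4 and 64.9 CPM in VS, VI, FS and FI, far below Cyp4a10.

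Vnn1 (ENSMUSG00000037440, chr10:23894688-23905343), a pantetheinase that releases vitamin B5 and cysteamine during CoA turnover, behaved otherwise. It stood at 55.6 (VS), 38.1 (VI), 19.0 (FS) and 25.5 CPM (FI), and both fibril libraries lay below both vehicle libraries. The log2 ratio was -1.55 (-1.70 to -1.41) in FS/VS and -0.58 (-0.73 to -0.43) in FI/VI. In the training comparisons it was -0.54 (-0.67 to -0.42) without fibrils and 0.42 (0.26 to 0.59) with them.

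Cpt1a (ENSMUSG00000024900, chr19:3323301-3385732), which makes acylcarnitines for transport into mitochondria and limits the rate of their oxidation, varied least, with 438 (VS), 390 (VI), 394 (FS) and 419 CPM (FI). The whole span was 0.17 on the log2 scale. Bdh1 (ENSMUSG00000046598, chr16:31422280-31458901), the mitochondrial enzyme that interconverts acetoacetate and 3-hydroxybutyrate, stood at 614 (VS), 366 (VI), 355 (FS) and 314 CPM (FI). It was thus high only in VS, with log2 ratios of -0.75 (-0.79 to -0.71) in VI/VS and -0.79 (-0.83 to -0.76) in FS/VS. VS was also the library with the most muscle transcripts, and their part in the Bdh1 ratios was not tested. The antisense gene Gm15743 overlaps Bdh1.

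Angptl4 (ENSMUSG00000002289, chr17:33773750-33781575), which encodes a secreted inhibitor of lipoprotein lipase, stood at 234 (VS), 290 (VI), 196 (FS) and 325 CPM (FI). Both trained libraries exceeded both sedentary ones. The log2 ratio was 0.31 (0.26 to 0.36) in VI/VS and 0.73 (0.68 to 0.78) in FI/FS.

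Ordered by FPKM, the level per length of transcript, the genes ran in VS from Cyp4a14 at 1186 through Cyp4a10 at 915, Acot1 at 221, Bdh1 at 198, Cpt1a at 103, Angptl4 at 77.1, Pdk2 at 54.5 and Vnn1 at 23.2 to Pdk4 at 7.51. In FS, Acot1 dropped behind Bdh1, Cpt1a and Angptl4, at 54.6 FPKM against 116, 93.8 and 65.9. In FI, Pdk4 at 12.5 FPKM stood ahead of Vnn1 at 10.3. Together the 9 genes took 0.673% (VS), 0.725% (VI), 0.384% (FS) and 0.693% (FI) of all counted reads.

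Counted over the 9 genes, 4 were more than 2-fold higher in FI than in FS (Pdk4, Acot1, Cyp4a10 and Cyp4a14), where 1.75% of all 12180 genes were higher by that much and 4.28% differed in either direction. In FS/VS, 4 were more than 2-fold lower (Pdk4, Acot1, Vnn1 and Cyp4a10), against 2.2% of all genes lower and 5.8% in either direction. No gene of the 9 passed 2-fold in VI/VS, where 3.44% of all genes did, or in FI/VI, where 4.54% did. The median log2 ratio of the 9 was 0.73 in FI/FS and -0.79 in FS/VS, against 0.00 and 0.02 over all genes. It was 0.08 in VI/VS and -0.17 in FI/VI, against 0.00 and 0.01. In FS/VS all 9 were lower, where 52.0% of all genes were higher. In FI/FS all but Bdh1 were higher, against 50.2% of all genes. Both counts rest on the same FS library. The 9 genes were chosen with earlier results of these data known, so the shares describe them and test nothing.

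**Figure D2:**
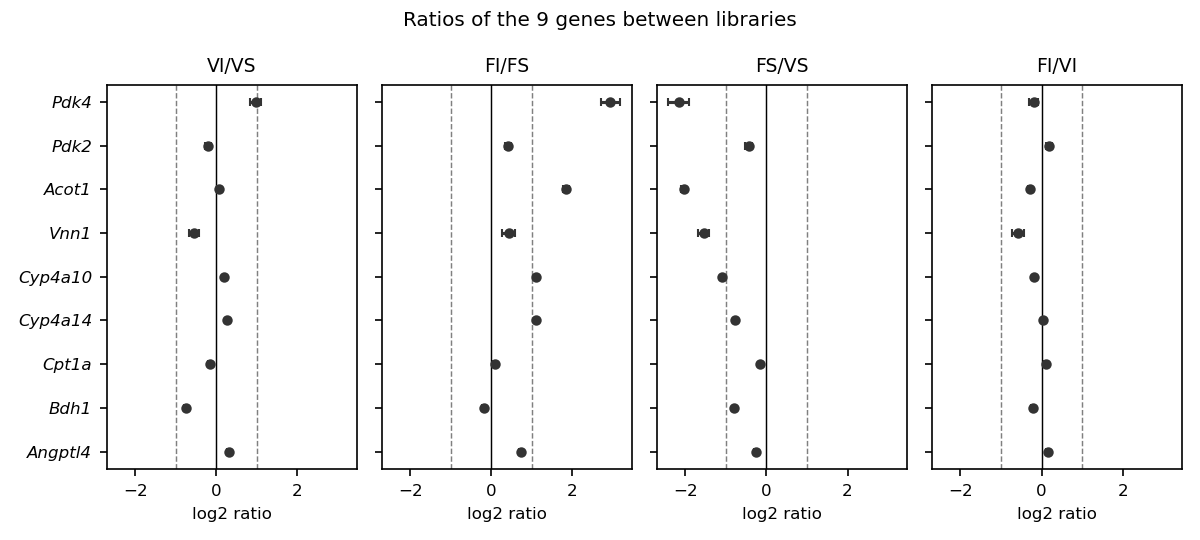
Log2 ratios (x axis) of the 9 genes (rows) in VI/VS, FI/FS, FS/VS and FI/VI, with 95% intervals from read counting only and dashed lines at 2-fold. Pdk4 reaches 2.94 in FI/FS and -2.16 in FS/VS, while no gene passes a dashed line in VI/VS or FI/VI.

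The ratio of trained to sedentary was larger with fibrils than without for each of the 9 genes. The difference of the 2 log2 ratios was 1.97 for Pdk4, 1.76 for Acot1, 0.97 for Vnn1, 0.91 for Cyp4a10 and 0.83 for Cyp4a14. It was 0.62 for Pdk2, 0.57 for Bdh1, 0.42 for Angptl4 and 0.26 for Cpt1a. For Bdh1 both training ratios were below 0, so the positive difference marks a smaller deficit in the trained library. The smallest difference, that of Cpt1a, exceeded those of 77.1% of all genes, and that of Pdk4 exceeded 99.6%. This difference uses all 4 libraries, so the single FS library enters it as well. It leaves nothing over to estimate its error across mice, and was not tested.

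To use the 4 libraries jointly, an additive model with 1 term for IT and 1 for fibrils was fitted across 11760 genes with edgeR's quasi-likelihood test, with 1 residual degree of freedom. For IT, 174 genes (1.48%) had a Benjamini-Hochberg adjusted p below 0.05 and 0 of the 9 did. At an unadjusted p below 0.05 there were 4 of the 9 (Bdh1, Cyp4a10, Cyp4a14 and Angptl4), against 14.7% of all genes. The IT term of Pdk4 was 1.88 (SE 0.60, edgeR adjusted p = 0.348), of Acot1 0.95 (SE 0.55, edgeR adjusted p = 0.563) and of Angptl4 0.52 (SE 0.14, edgeR adjusted p = 0.138). For Pdk4 the call turned with the method: limma-voom gave an adjusted p of 0.0338 and edgeR without robust estimation 0.0487, and DESeq2 made no call among the 9. For fibrils, 585 genes (4.97%) were called and among them Vnn1 alone of the 9, which fell by 1.08 on the log2 scale (SE 0.22, edgeR adjusted p = 0.0478). That call held with the DESeq2 Wald test (adjusted p = 0.000949), limma-voom (adjusted p = 0.0158) and edgeR without robust estimation (adjusted p = 0.0231). It also held with total counts (edgeR adjusted p = 0.0378). It ended with a filter of 5 CPM in 2 libraries, where the edgeR adjusted p of Vnn1 was 0.0567. With no CPM filter 3 of the 9 were called (Bdh1, Cyp4a10 and Vnn1), against 1519 of 19939 genes. The model assumes that IT acts alike with and without fibrils, an assumption from which Pdk4 and Acot1 departed most.

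**Figure D3:**
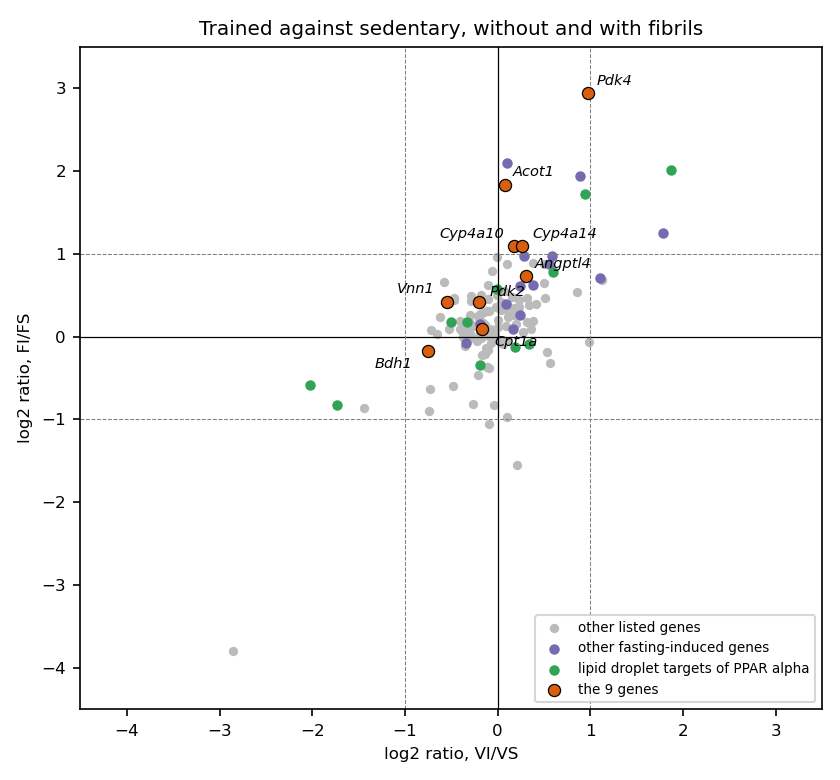
Log2 ratio of VI to VS (x axis) against that of FI to FS (y axis) for the 9 genes (orange, named) and 138 related genes (small points), with dashed lines at 2-fold. Pdk4 lies at 0.97 and 2.94, and Acot1 at 0.08 and 1.84, well above most of the points.

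The related genes came from 11 lists of 148 genes, of which 147 were found and 138 passed the CPM filter. Among these 138, 99 were higher in FI than in FS and 39 lower, with a median log2 ratio of 0.17, 5 of them more than 2-fold higher and 3 lower. In FS/VS 39 were higher and 99 lower, with a median of -0.36, and 6 were more than 2-fold higher and 12 lower. In VI/VS the median was -0.08, with 4 genes higher and 4 lower past 2-fold, and in FI/VI it was -0.12, with 7 higher and 8 lower. The additive model called 8 genes higher and 4 lower with IT, and 6 higher and 19 lower with fibrils. Past 2-fold in either direction these are 5.8% of the 138 in FI/FS, 13.0% in FS/VS, 5.8% in VI/VS and 10.9% in FI/VI, against 4.28%, 5.8%, 3.44% and 4.54% of all genes. Called in the model were 8.7% for IT and 18.1% for fibrils, against 1.48% and 4.97%. The lists too were chosen with earlier results of these data known, so these shares are a description.

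The receptor itself moved little. Ppara, given outside the naming rule and after its values were seen, stood at 81.2 (VS), 80.5 (VI), 61.6 (FS) and 79.0 CPM (FI), again with FS lowest. Its list of 17 partners and coactivators had a median log2 ratio of 0.36 in FI/FS. Within it the rule named Lpin1, a coactivator and phosphatidate phosphatase, with 111, 241, 429 and 690 CPM in VS, VI, FS and FI, called higher with IT (0.91, edgeR adjusted p = 0.0261) and with fibrils (1.73, edgeR adjusted p = 0.00143). It also named Rxrg and Ppargc1b, both below 7 CPM, with log2 ratios of -0.97 and 0.66 in FI/FS. Pparg, looked up after its values were seen, had 38, 5, 42 and 2 reads in VS, VI, FS and FI.

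Among 12 other genes of the pyruvate dehydrogenase complex and its regulators, none passed 2-fold in any comparison and none was called for either term. The median log2 ratio was 0.04 in FI/FS. The named genes were Pdpr, a regulator of pyruvate dehydrogenase phosphatase, Pcx (pyruvate carboxylase) and Pdha1 (the E1 alpha subunit), at 0.65, 0.42 and 0.33 in that comparison. The kinase Pdk1, given after its values were seen, had 30.9, 25.2, 21.1 and 20.8 CPM, with no high value in VI or FI.

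The genes of fatty acid uptake, activation and the carnitine shuttle (16) were lower in FS than in VS for 14, with a median of -0.61, and 2 were called lower with fibrils. Crat, which moves short acyl groups onto carnitine, had 117, 116, 50.8 and 99.2 CPM, lowest in FS like the hydroxylases. The fatty acid transporter Cd36 had 71.8, 26.5, 41.0 and 22.5 CPM and was called lower with IT (-1.15, edgeR adjusted p = 0.0164). Acsl3, an acyl-CoA synthetase, had 28.0, 27.2, 22.9 and 12.9 CPM.

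Mitochondrial beta oxidation genes were lower in FS than in VS for 15 of 15 and higher in FI than in FS for 14, with medians of -0.53 and 0.23, and none passed 2-fold. The isomerases Eci1 and Eci2 and the dehydrogenase Acadvl were named, with log2 ratios of 0.43, 0.37 and 0.39 in FI/FS. One gene of this list was called, lower with fibrils, and it was Hadh, named after its values were seen (-0.59, edgeR adjusted p = 0.0398).

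Peroxisomal beta oxidation genes were lower in FS than in VS for 11 of 11 and lower in FI than in VI for 11 of 11, with medians of -0.83 and -0.57. The additive model called 6 of 11 lower with fibrils, with no call for IT. The bifunctional enzyme Ehhadh had 824, 761, 415 and 513 CPM in VS, VI, FS and FI (fibril term -0.79, edgeR adjusted p = 0.0223). Pex11a, which promotes peroxisome division, had 182, 196, 89.6 and 165 CPM, nearer to the pattern of Cyp4a10, and the transporter Abcd2 had 79.5, 66.4, 63.4 and 36.0. Acaa1b, a thiolase named after its values were seen, had 2994, 1949, 791 and 933 CPM, low in both fibril libraries (-1.50, edgeR adjusted p = 0.0129).

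**Figure D4:**
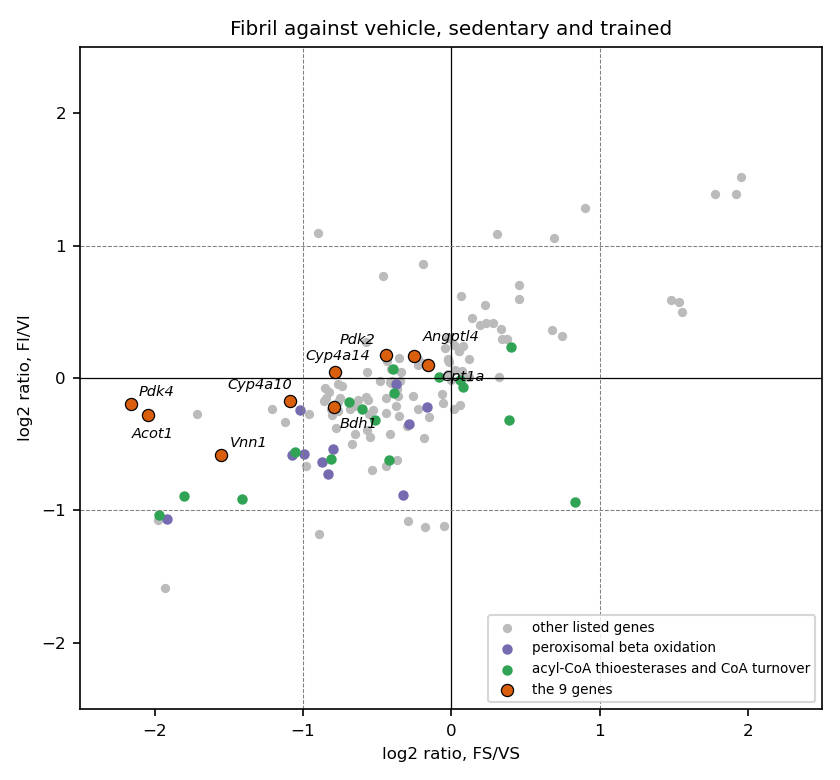
Log2 ratio of FS to VS (x axis) against that of FI to VI (y axis) for the 9 genes (orange, named) and 138 related genes, with dashed lines at 2-fold. Pdk4 at -2.16 and -0.20 and Acot1 at -2.04 and -0.28 lie near the horizontal zero line, whereas the peroxisomal Acaa1b, at -1.92 and -1.06, lies below it.

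The acyl-CoA thioesterases and CoA turnover genes (17) held 6 called lower with fibrils, with a median of -0.42 in FS/VS and -0.32 in FI/VI. Acot3, a peroxisomal copy near Acot1, beyond Acot4, whose values were seen first, had 183, 131, 46.6 and 64.3 CPM (-1.51, edgeR adjusted p = 0.0153). Its FI level stayed near its FS level, with a log2 ratio of 0.46 in FI/FS where Acot1 had 1.84. The named genes were Acot11 at 3.22, 3.74, 5.76 and 1.94 CPM, the peroxisomal CoA hydrolase Nudt7 at 76.2, 45.7, 101 and 53.9 CPM, called lower with IT (-0.82, edgeR adjusted p = 0.0154), and Acot7 at 25.7, 25.5, 15.9 and 22.5.

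The other omega hydroxylation genes (6 measured) had a median of 0.50 in FI/FS and -0.38 in FS/VS. Por, the reductase that feeds electrons to these enzymes, had 929, 1210, 729 and 1345 CPM, Cyp4a32 was called higher with IT (0.69, edgeR adjusted p = 0.0408), and Cyp4f15 had 186, 174, 105 and 161 CPM. Ketone body genes (9) had medians of 0.05 and -0.44 in those comparisons, with 2 called lower with fibrils. The named ones were Aacs, Bdh2 and Slc16a6, with log2 ratios of 0.45, -0.38 and -0.32 in FI/FS, and Bdh2 was called lower with fibrils (-1.04, edgeR adjusted p = 0.0231).

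In the lipoprotein lipase axis (10 genes) no gene was called. Lpl itself had 12.2, 11.4, 35.3 and 16.9 CPM, Gpihbp1, which anchors it to capillaries, 16.8, 18.8, 16.6 and 23.2, and Apoa5 2166, 2876, 1854 and 2441. Thus Lpl was highest in FS, the library in which the RNA of its inhibitor Angptl4 was lowest. In FI, where Angptl4 was highest, Lpl stood above its VS and VI levels, and a link between them was not tested.

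Lipid droplet genes (11) held 3 calls higher and 1 lower for IT. The droplet coat proteins Plin4 and Plin5 had 5.25, 19.3, 7.21 and 29.1 CPM and 60.7, 117, 75.3 and 249 CPM, both high in the trained libraries (1.95, edgeR adjusted p = 0.00115, and 1.34, edgeR adjusted p = 0.0299). G0s2, an inhibitor of the lipase ATGL, had 117, 35.1, 29.6 and 16.7 CPM, and was called lower for both terms (-1.30, edgeR adjusted p = 0.0438 for IT, and -1.55, edgeR adjusted p = 0.0136 for fibrils). Of the 14 other fasting-induced genes, 13 were higher in FI than in FS and 12 higher in VI than in VS, with medians of 0.67 and 0.27. With fibrils this list stood mostly higher as well, 9 of 14 in FS/VS and 12 of 14 in FI/VI, with medians of 0.19 and 0.63, and 5 genes were called higher and 1 lower.

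Within that list Txnip, an inhibitor of thioredoxin and glucose uptake, had 171, 183, 91.8 and 392 CPM in VS, VI, FS and FI. G6pc, the last step of glucose release, had 206, 381, 181 and 694. Igfbp1, a secreted binding protein of insulin-like growth factors, had 154, 533, 585 and 1396 and was called higher for both terms (1.52, edgeR adjusted p = 0.00457 for IT, and 1.65, edgeR adjusted p = 0.00283 for fibrils). Igfbp1 and Lpin1 were therefore higher in FS than in VS, where Pdk4 was lower. Fgf21, the fasting hepatokine induced by PPAR alpha, given after its values were seen, had 7.28, 6.36, 1.90 and 2.11 CPM, low in both fibril libraries (-1.77, edgeR adjusted p = 0.00622).

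The levels most like those of Pdk4 were sought among 9340 other genes with at least 5 CPM in a library, by the Euclidean distance between log2 CPM values over the 4 libraries after centring each gene. Among the nearest was the clock repressor Cry1 at a distance of 0.90, with 13.8, 31.5, 6.37 and 22.3 CPM. Next came the lincRNA Gm10804 at 1.20, the cell cycle factor E2f8 at 1.21 and Lonrf3 at 1.29, all below 10 CPM. Of the 9 genes, Acot1 was nearest and would come just after Cry1, then Cyp4a10 at 1.52 and Cyp4a14 at 1.62. With 4 values per gene this order is a description.

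**Figure D5:**
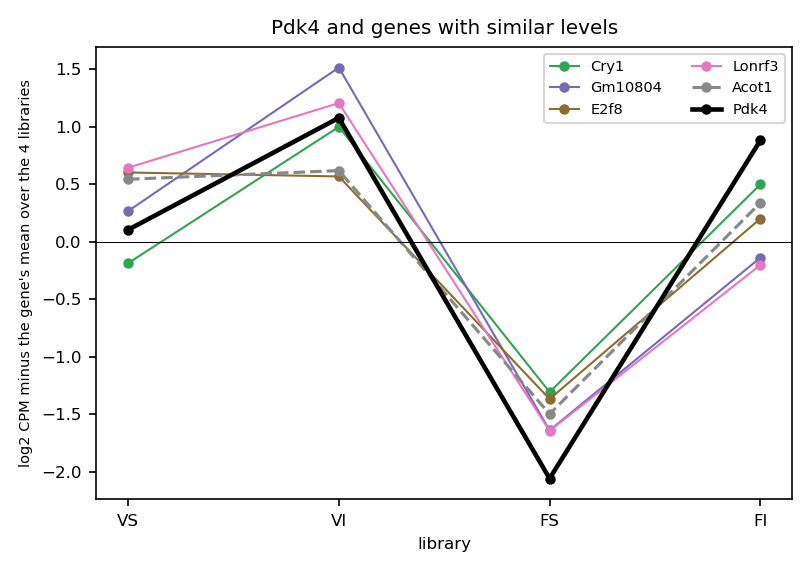
Log2 CPM minus each gene's own mean (y axis) in the 4 libraries (x axis) for Pdk4 (thick line), 4 of the 5 most similar genes and Acot1 (dashed). All 6 lines dip in FS, Pdk4 from 26.0 CPM in VS to 5.79 CPM, and stand higher again in FI.

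Because Cry1 stood so near, 15 genes of the circadian clock and its output were then listed, after these values had been seen. In VI/VS 6 of the 14 that passed the CPM filter were beyond 2-fold, and in FI/FS 4, against the 3.44% and 4.28% of all genes. Cry1, which prompted the list, is counted in both, at log2 ratios of 1.19 and 1.80. Arntl, also counted in both, was itself at rank 7 among the genes most like Pdk4. These counts are therefore not independent of how the list came about. Arntl had 1.44, 6.65, 1.12 and 4.71 CPM in VS, VI, FS and FI, Nr1d1 30.0, 7.10, 49.0 and 7.19, and Dbp 102, 22.2, 80.9 and 25.5. These 3 differed more than 2-fold between trained and sedentary libraries, in the same direction with and without fibrils. Clock was higher in both trained libraries, but past 2-fold only without fibrils, with log2 ratios of 1.05 in VI/VS and 0.18 in FI/FS. Some other listed genes also kept their direction, such as Per3 at -0.70 and -0.38. Others did not, such as Ciart at -1.38 and 0.19 and Per2 at -0.84 and 0.11. In FS/VS, where Pdk4 was 4.47-fold lower, Arntl, Nr1d1 and Dbp had log2 ratios of -0.36, 0.71 and -0.34. There 2 of the 14 clock genes passed 2-fold, Cry1 at -1.12 and Per2 at -1.11, against 5.8% of all genes. In FI/VI 2 of the 14 passed it, Ciart at 2.07 and Nfil3 at -1.06, against 4.54%. The part of the clock or of the hour of collection in the Pdk4 ratios was not tested.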

How the data were processed

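The authors pooled liver tissue of 4 mice per group and deposited, for 35275 genes, read counts and FPKM values, with gene lengths in bases as another column. The submitters' processing notes name fastp 0.23.2, STAR 2.5, HTSeq 0.6.1 and the build mm10, with no settings. The deposited FPKM equal the deposited counts divided by gene length and library total, within 0.001, for all 69722 values above 0, so they carry no further information.

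Counts were scaled by TMM in edgeR 4.0.16 (R 4.3.3), with factors of 0.9754 to 1.025. Log2 ratios used a prior of 0.5 counts. Intervals are exact binomial ones (Clopper-Pearson, conditional on the summed count) for ratios and exact Poisson ones for levels. They cover counting error only, since reads carried no molecular identifiers. Genes needed 1 CPM in 1 library for ratios and in 2 libraries for the additive model. The difference of 2 ratios took its interval from the delta method. With 1 library per group no comparison of single libraries was tested. The additive edgeR quasi-likelihood model, with robust estimation, has p-values that rest on 1 residual degree of freedom and on variance shared across genes. The study's methods also used edgeR on the counts.

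The alternatives were DESeq2 1.42.0, limma-voom (limma 3.58.1), other scaling, filters, prior counts and fold thresholds, and FPKM with a pseudocount of 1 or 0.1. Ratio and model code was tested on simulated data. Genes were named if they were 1 of the 9, were among the 3 with the largest absolute log2 ratio of FI to FS in each of 11 lists at 5 CPM or more in 1 library, or were among the 5 most like Pdk4. Other genes named are marked as such, and 1 gene that the rule names is not reported here. The members and lists were chosen with earlier results of these data known. Symbols, identifiers and positions are those of the count table, and overlaps and shared 50-base words come from GENCODE M21 on the same build. Figures were drawn with matplotlib 3.10.9.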

Additional observations from a re-analysis of the deposited data

Results flagged for a closer look

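For some of the 9 genes the same treatment went with opposite directions in 2 arms, both with counting intervals off 0. With 1 pooled library per group, the difference between the arms was not tested across mice. In the training comparisons (VI/VS, then FI/FS), the log2 ratios were -0.20 and 0.42 for Pdk2, -0.17 and 0.090 for Cpt1a, and -0.54 and 0.42 for Vnn1. In the fibril comparisons (FS/VS, then FI/VI), they were -0.44 and 0.18 for Pdk2, -0.15 and 0.10 for Cpt1a, -0.78 and 0.044 for Cyp4a14, and -0.25 and 0.17 for Angptl4.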

How the results depend on the processing

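No paired analysis was possible because each group has 1 library, and leaving out a library would leave no residual degree of freedom for the additive model. Over 387 alternative values none changed direction. With total counts, FPKM plus 1 and FPKM plus 0.1 in place of TMM-scaled counts, the median log2 ratio of the 9 genes in FI/FS was 0.66, 0.65 and 0.66, and in FI/VI it was -0.20 in each. With FPKM plus 1 the median in FS/VS was -0.76, and the ratio of Pdk4 shrank to 2.32 in FI/FS and -1.65 in FS/VS. At a 1.5-fold threshold 2 of the 9 passed in VI/VS, against 0 at 2-fold, with Pdk4 higher and Bdh1 lower. There were 5 in FI/FS and 6 in FS/VS, against 4 in each at 2-fold, and 0 in FI/VI. The share of all genes past 1.5-fold was not counted, so these counts cannot be set beside it. In the additive model for IT, 1 of the 9 was called by limma-voom and 1 by edgeR without robust estimation, and 4 without the CPM filter. For fibrils 1 was called with DESeq2, limma-voom, edgeR without robust estimation and total counts, as in the main model. There were 3 called without the CPM filter and 0 at 5 CPM in 2 libraries, where Vnn1 had an edgeR adjusted p of 0.0567. Over all genes, IT calls numbered 174 of 11760, but 274 with total counts, 740 of 19939 with no CPM filter and 82 of 8999 at 5 CPM. Limma-voom made 242 IT calls and edgeR without robust estimation 204. Fibril calls numbered 585 of 11760, but 1519 of 19939 with no CPM filter and 410 of 8999 at 5 CPM. No scaling moved the median of all genes by more than 0.1. The lowest count of any of the 9 genes was 171, so that counting intervals are narrow, while the spread between mice remains unmeasured in these pooled libraries. From the same read counts the study listed Pdk4 as differentially expressed and higher with IT, both without and with fibrils. For Pdk4 the study also ran real-time qPCR on livers of single mice, which is not used here.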
